A study of Rattus norvegicus with 6 samples.

Results

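The antioxidant and glutathione genes of the rat trigeminal ganglion were followed as a fixed list of 31 named genes, read from the table of 29884 gene symbols. All 31 were in the table, and all 31 were among the 16478 genes that passed the filter on low counts. The libraries came from trigeminal ganglia, where the neurons that sense touch and pain in the face have their cell bodies, of wild type rats. In the injury group (3 samples) the infraorbital nerve, a branch to the face, had been chronically constricted (CCI-ION), which is a model of trigeminal neuralgia. In the conduit group (3 samples) the rats had the same constriction and the SFM-Gel @NGC-Light treatment, a light-driven gel in a nerve conduit. Both groups therefore carry the injury, and ganglia of uninjured rats were not analysed here. The labels place injury samples 1, 2 and 3 at days 14, 15 and 16 after injury and conduit samples 1, 2 and 3 at days 17, 18 and 19. Every conduit sample is thus labelled later than every injury sample, so that time and treatment cannot be told apart. The labelled days go up by 1 from each sample to the next, and whether ganglia were taken on those days is unknown. Injury samples 1 and 2 are labelled batch 1, injury sample 3 and conduit sample 1 batch 2, and conduit samples 2 and 3 batch 3, so that only batch 2 holds both groups. The labels name no strain, sex or age and do not tie a sample to 1 animal, so the spread between samples may be technical in part.

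Cells remove superoxide with superoxide dismutases, which turn it into hydrogen peroxide, and remove the peroxide with catalase, glutathione peroxidases and peroxiredoxins. Glutathione and thioredoxin supply the reducing power and are themselves restored with NADPH. The transcription factor NRF2 (gene Nfe2l2) is held back by its sensor KEAP1, is released by oxidants, and then induces a set of detoxifying and glutathione genes through antioxidant response elements. Sensory neurons, with long axons rich in mitochondria, produce superoxide as they respire. The members were taken by role: the NRF2 and KEAP1 pair, 6 NRF2 targets outside glutathione synthesis, 2 mitochondrial thioredoxin genes, 15 superoxide and peroxide enzymes, and 6 glutathione enzymes, of which Gclc and Gclm are also well-known NRF2 targets.

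The antioxidant response element core, TGACNNNGC on either strand, was searched for in RefSeq promoters of 300 bases (250 before and 50 after the start site, build GRCr8), which were found for 26 of the 31 members. It was present in 8 of their 29 promoters (27.6%), each of a different member, and in 13.9% of the 15105 promoters of tested genes. The difference between these shares was not tested. The 4 windows shown are those of members that act in or next to the NRF2 system and hold the core upstream of the start, with the core in capitals and written 5′ to 3′ in the direction in which it reads TGAC:

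Gclm (chr2:213031953-213031981, gene on the plus strand, core antisense to the gene and centred 168 bases upstream): tggaagacaaTGACTAAGCagaaaccgca

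Gstp1 (chr1:210769748-210769776, gene on the minus strand, core in the sense direction and centred 57 bases upstream): tccactgtgtTGACTCAGCatccggggcg

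Prdx1 (chr5:135383761-135383789, gene on the plus strand, core antisense to the gene and centred 131 bases upstream): cggcggggtaTGACTCAGCgctttccctg

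Txnrd1 (chr7:22755964-22755992, gene on the minus strand, core antisense to the gene and centred 74 bases upstream of 1 of its 2 listed starts): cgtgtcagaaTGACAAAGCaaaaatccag

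Gstp1 and Prdx1 hold the same 9 letters, TGACTCAGC, while Gclm and Txnrd1 differ from them within the 3 free positions. The other promoters with a match were those of Sod2, Prdx4, Prdx5 and Nfe2l2. These are matches of letters in a short window, and for the other promoters searched the result says only that the letters are not in the window. Of the 6 promoters of the NRF2 targets outside glutathione synthesis, 1 held the core (16.7%, against 13.9% for tested genes). It was a promoter of Txnrd1, and those of Nqo1, Srxn1, Slc7a11 and Txn1 held none. Hmox1, Gpx8, Prdx6, Gsr and Sod3 were not searched. None of the 4 genes shown passed the test between the groups, and their log2 fold changes lay between -0.13 (Gclm) and -0.056 (Txnrd1).

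The libraries held 40172473 to 41903629 counts. Of the members, 25 had at least 1000 counts in every library and 30 had at least 100, and the lowest count of any member was 69 (Slc7a11 in conduit sample 2). Ganglion identity was clear in every library, with the 12 sensory neuron markers summing to between 20804 and 29537 CPM (counts relative to the library total, scaled by TMM) and the 8 Schwann cell markers to between 29726 and 49823. The libraries differed in other tissue. For all 14 erythroid markers each conduit library lay below each injury library, and their sum was 4789 to 5746 CPM with injury alone and 587 to 1375 CPM with the conduit. The 10 neutrophil markers, of which Ltf had no count in any library, summed to 60.9 to 697 CPM in the injury libraries, with the highest level in injury sample 2, and to 15.2 to 39.5 CPM in the conduit libraries. Muscle markers reached 8868 CPM in conduit sample 2 against 76.1 to 581 elsewhere, of which Pvalb alone gave 68.4 to 118 CPM. Macrophage markers reached 256 CPM in conduit sample 1 against 106 to 153 elsewhere. In bulk tissue, fewer cells of a type and less RNA per cell cannot be told apart.

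Per unit of transcript length (FPKM), the most abundant members were thioredoxin and the enzymes of the cytosol. Txn1, cytosolic thioredoxin, stood at 562 ± 74.8 FPKM in injury and 573 ± 23.5 in conduit (SD, n = 3 in each). Prdx2, a peroxiredoxin of the cytosol, followed at 364 ± 33.8 and 328 ± 26.4 FPKM, then Sod1, the copper and zinc dismutase, at 344 ± 35.3 and 329 ± 33.9, and Gpx4, which repairs peroxidised membrane lipids, at 314 ± 52.8 and 333 ± 35.4. These last 3 did not differ from one another beyond their spread. A second tier near 100 FPKM held Prdx1, Prdx5, Gstp1, Gpx1 and Sod2, whose means over the 6 libraries lay between 105 and 134 FPKM. The 5 lowest members were Gclc at 10.4 ± 0.8 and 9.07 ± 0.55 FPKM, Nfe2l2 at 9.41 ± 0.24 and 9.8 ± 1.1, Txnrd2, the mitochondrial thioredoxin reductase, at 8.17 ± 1.26 and 6.86 ± 0.591, Hmox1 at 5.88 ± 1.57 and 4.41 ± 1.1, and Slc7a11 at 0.530 ± 0.190 and 0.594 ± 0.595. NRF2 targets were thus spread over the whole range, with Gclm, Nqo1 and Txnrd1 at means of 31.6, 30.9 and 28.8 FPKM. Across the 31 members the mean level thus ran from 0.562 FPKM for Slc7a11 to 568 for Txn1.

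**Figure D1:**
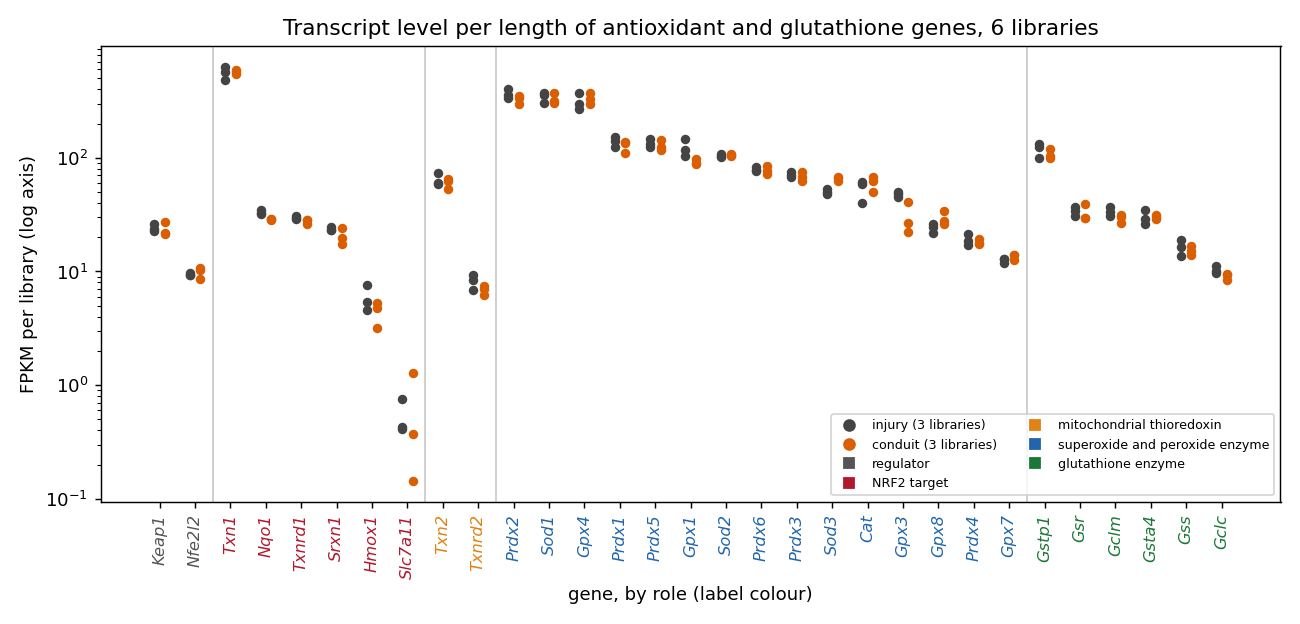
Level per transcript length (FPKM, log axis) of each of the 31 genes in the 3 injury and 3 conduit libraries, 1 point a library, with genes ordered by role and by mean level. Txn1, Prdx2, Sod1 and Gpx4 are highest, Slc7a11 is lowest and most scattered, and the points of the groups lie close together for most genes.

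The comparison of conduit with injury asks whether transcripts of oxidant defence differed with the treatment, in a study whose title names oxygenation and mitochondrial function. No member passed edgeR's quasi-likelihood test after Benjamini-Hochberg adjustment over all tested genes, where 1 of 16478 genes (0.00607%) was called. DESeq2 called 1 member, Sod3, where it called 1.23% of 17126 genes, and limma-voom called none. At an unadjusted edgeR p under 0.05 there were 4 members, or 12.9%, against 5.35% of all tested genes: Sod3 and Gpx8 higher in conduit, where the share of all genes was 2.99%, and Gpx3 and Gpx1 lower, where it was 2.36%. Groups did not overlap in their library values for 6 members, or 19.4%, against 9.63% of all tested genes. They were the same 4 with Nqo1 and Gclm, so 2 were higher (5.41% of all genes) and 4 lower (4.22%). The median log2 fold change was -0.012 over the members and 0.0017 over all tested genes, and 26 of the 31 members (83.9%) lay within 0.25 of zero, as did 75% of all tested genes. Within batch 2, where conduit sample 1 is set against injury sample 3, the median of the members was -0.12. Injury samples 2 and 3 had the highest summed levels of dividing-cell and neutrophil markers. With both left out, an alternative chosen after seeing the data, 1 member (Cat) was at an unadjusted p under 0.05, as were 4.54% of all genes tested. That fit keeps 1 injury library, which is assumed to vary like the conduit libraries.

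**Figure D2:**
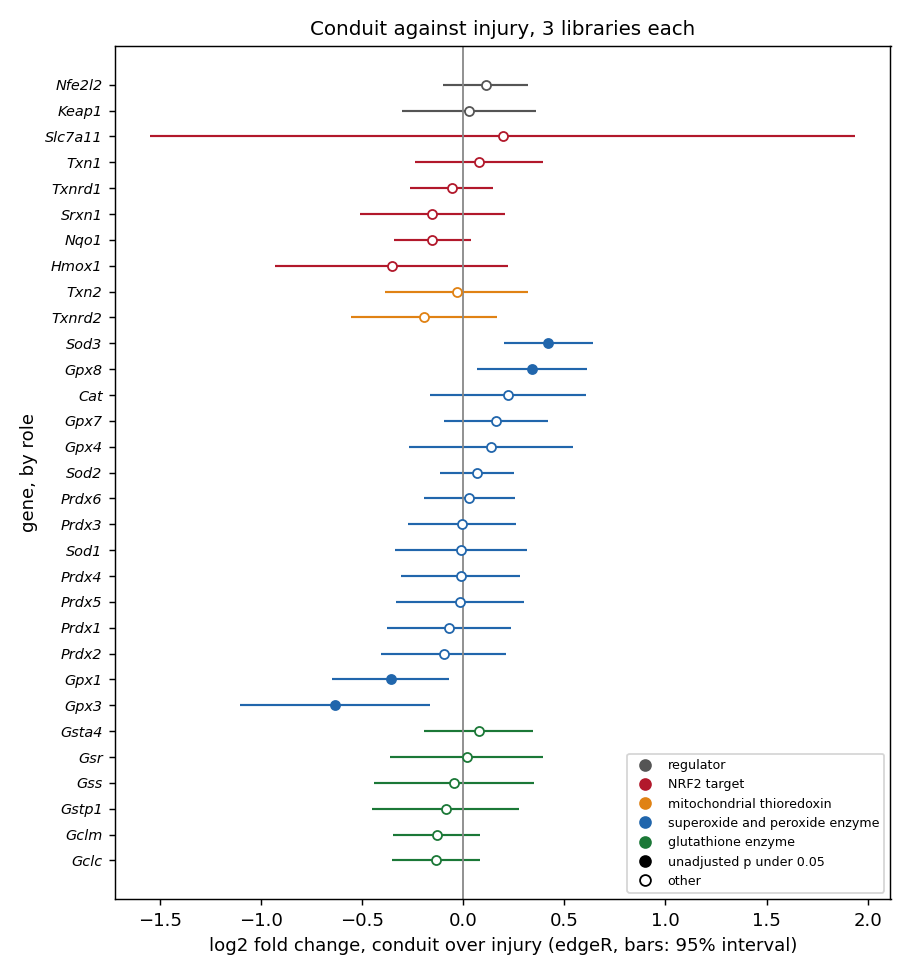
Log2 fold change of conduit over injury for each of the 31 genes by role, with 95% intervals from the edgeR fit. Filled points (Sod3, Gpx8, Gpx1 and Gpx3) had an unadjusted p under 0.05, all of them superoxide or peroxide enzymes, and the interval of Slc7a11 is the widest.

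Neither the NRF2 nor the KEAP1 transcript passed the test between the groups. Nfe2l2 was 57.9, 56.6 and 55.9 CPM in injury and 64.4, 64.3 and 55.2 CPM in conduit. Conduit samples 1 and 2 were above all injury samples and conduit sample 3 below them, and the log2 fold change was 0.11 with a 95% interval from -0.098 to 0.32. Keap1, the adaptor that marks NRF2 for degradation, was 87.8, 73.8 and 73.9 CPM in injury and 70.3, 74.3 and 95.6 CPM in conduit. Its highest libraries were injury sample 1 and conduit sample 3. The log2 fold change of Keap1, 0.028, was smaller than the gap between samples of 1 group and changed sign with scaling by FPKM. With log2 FPKM the median of all tested genes itself was -0.038 or -0.053, by pseudocount. NRF2 is controlled mainly through the stability of its protein, which these data do not measure.

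Of the 6 NRF2 targets, 4 had lower and 2 higher means in conduit, with a median log2 fold change of -0.10 (-0.094 within batch 2), and none passed the test. Nqo1, which reduces quinones in a step that spares radicals, was 47.5, 44.8 and 49.98 CPM in injury and 41.2, 43.4 and 43.4 CPM in conduit. Every conduit library was below every injury library, by a small margin. The log2 fold change was -0.15 (95% interval -0.34 to 0.037; edgeR adjusted p = 0.9998), and -0.28 within batch 2. Hmox1, heme oxygenase 1, which degrades heme and responds strongly to it, was 9.77, 15.1 and 11.1 CPM in injury and 10.96, 6.81 and 10.4 CPM in conduit. The groups overlapped, with injury sample 2 high and conduit sample 2 low, and the log2 fold change was -0.35 (95% interval -0.93 to 0.22) and -0.014 within batch 2. The erythroid markers, whose cells carry heme, were 14 of 14 lower in conduit, and their part in the Hmox1 level was not tested.

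Slc7a11, the cystine importer that feeds glutathione synthesis, varied most among the members. It was 4.95, 4.78 and 8.63 CPM in injury and 14.7, 1.73 and 4.57 CPM in conduit, an 8.49-fold range that was set inside the conduit group. Its log2 fold change of 0.196 had a 95% interval from -1.55 to 1.94 and was -0.95 without conduit sample 1. That library had the most macrophage, satellite glia, fibroblast and endothelium marker RNA. The lowest level was in conduit sample 2, the library with the most muscle and adipocyte marker RNA. The part of those tissues in the spread was not tested. The thioredoxin pair of the cytosol was steadier. Txn1 was 213, 152 and 184 CPM in injury and 187, 185 and 207 CPM in conduit, and Txnrd1, its reductase, was 109, 108 and 106 CPM in injury and 93.9, 106 and 110.2 CPM in conduit. Txnrd1 had a log2 fold change of -0.056 and a narrow 95% interval, -0.26 to 0.15, which allows a fall of at most 16.5%. Srxn1, which rescues over-oxidised peroxiredoxins, was 66.9 ± 4.23 CPM in injury against 60.2 ± 12.4 CPM in conduit. In the mitochondrial pair, Txn2 was 82.2, 63.4 and 62.9 CPM in injury and 57.4, 73.7 and 72.8 CPM in conduit, and Txnrd2 was 15.9 ± 2.31 CPM in injury against 13.9 ± 1.52 CPM in conduit, so that both overlapped between the groups.

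The 3 superoxide dismutases act in different compartments, and none passed the edgeR test. Sod3, the dismutase secreted into the extracellular matrix, was 94.3, 78.6 and 84.9 CPM in injury and 115, 110.3 and 119.8 CPM in conduit. All 3 conduit libraries were above all 3 injury libraries, and the mean went from 85.9 ± 7.88 to 115 ± 4.76 CPM. The difference was 0.42 on the log2 scale (SE 0.093; 95% interval 0.20 to 0.64), or 33.8% more, with an edgeR adjusted p = 0.569. DESeq2 gave an adjusted p = 0.0209, and over all alternatives the adjusted p ranged from 0.0209 to 0.99993. The fold change was 0.44 within batch 2 and between 0.36 and 0.50 with each library left out, and it was 0.28 without injury samples 2 and 3. Schwann cell markers moved in the same direction as Sod3, 7 of 8 higher in conduit, with sums of 29726 to 36397 CPM in injury and 43687 to 49823 in conduit, and fibroblast markers overlapped, at 2547 to 4848 and 3084 to 5209 CPM. Their part in the Sod3 level was not tested.

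Sod2, the manganese dismutase of mitochondria, was 215, 205 and 218 CPM in injury and 214, 229 and 227 CPM in conduit. The log2 fold change of 0.07 had a 95% interval of -0.11 to 0.25, and it was -0.027 within batch 2. Sod1, in the cytosol, was 244, 188 and 229 CPM in injury and 202, 203 and 252 CPM in conduit. Its means of 220.2 ± 29.2 and 219 ± 28.5 CPM were nearly equal, with a 95% interval of the log2 fold change from -0.34 to 0.32. Sod3 was thus the only dismutase of the 3 whose libraries did not overlap between groups, but whether its difference exceeded those of Sod1 and Sod2 was not tested.

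Catalase, which breaks down peroxide in peroxisomes and is abundant in red cells, was 104, 142 and 152 CPM in injury and 168, 163 and 134 CPM in conduit. Injury sample 1 was the lowest library and the groups overlapped. The log2 fold change of Cat was 0.22 (95% interval -0.16 to 0.61), but 0.085 without injury sample 1 and 0.57 without injury samples 2 and 3. The erythroid markers were 14 of 14 lower in conduit, and their part in the Cat level was not tested.

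The glutathione peroxidases split. Gpx1, the peroxidase of the cytosol and of red cells, was 95.3, 127 and 105 CPM in injury and 80.5, 90.1 and 85.2 CPM in conduit. The groups did not overlap, and the injury libraries were the more scattered, with a mean of 109 ± 16.5 CPM against 85.3 ± 4.78 in conduit. Conduit over injury gave a log2 fold change of -0.36 (SE 0.12; edgeR adjusted p = 0.81), and it was -0.38 within batch 2, -0.23 without injury sample 2 and -0.16 without injury samples 2 and 3. The highest level was in injury sample 2, the library with the most neutrophil marker RNA, and the erythroid markers followed the same direction between groups. The part of blood cells in the Gpx1 level was not tested.

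Gpx3, the secreted peroxidase of plasma and extracellular fluid, was 72.2, 74.2 and 72.9 CPM in injury and 63, 42.2 and 36.2 CPM in conduit. The injury libraries were within 2 CPM of each other, while conduit sample 1 stood near them and conduit samples 2 and 3 well below. The difference of -0.63 on the log2 scale (SE 0.20; 95% interval -1.1 to -0.16; edgeR adjusted p = 0.755) was the largest among the members. It was -0.21 within batch 2, which holds conduit sample 1, and -0.90 without conduit sample 1, so its size rests on the libraries of batch 3. Batch and treatment cannot be told apart for those libraries.

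Gpx8 and Gpx7 are peroxidases of the endoplasmic reticulum that take up peroxide made during protein folding. Gpx8 was 23.5, 24.6 and 27.4 CPM in injury and 35.8, 30.5 and 29.4 CPM in conduit. All conduit libraries were above all injury libraries, with the largest gap for conduit sample 1. The log2 fold change was 0.34 (SE 0.11; edgeR adjusted p = 0.809), 0.38 within batch 2 and 0.25 without conduit sample 1. Gpx7 was 15.5, 14.5 and 13.8 CPM in injury and 16.3, 15.3 and 17.4 CPM in conduit, with overlap between groups and a log2 fold change of 0.16 (95% interval -0.094 to 0.42). Prdx4, the peroxiredoxin of the same compartment, was 25.4 ± 3.74 CPM in injury against 25.2 ± 0.633 CPM in conduit. Gpx4, the lipid peroxidase that guards against ferroptosis, was 433, 293 and 334 CPM in injury and 337, 384 and 444 CPM in conduit. It varied by 1.52-fold over the libraries with injury sample 1 and conduit sample 3 highest, and its log2 fold change of 0.14 had a 95% interval from -0.27 to 0.54.

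**Figure D3:**
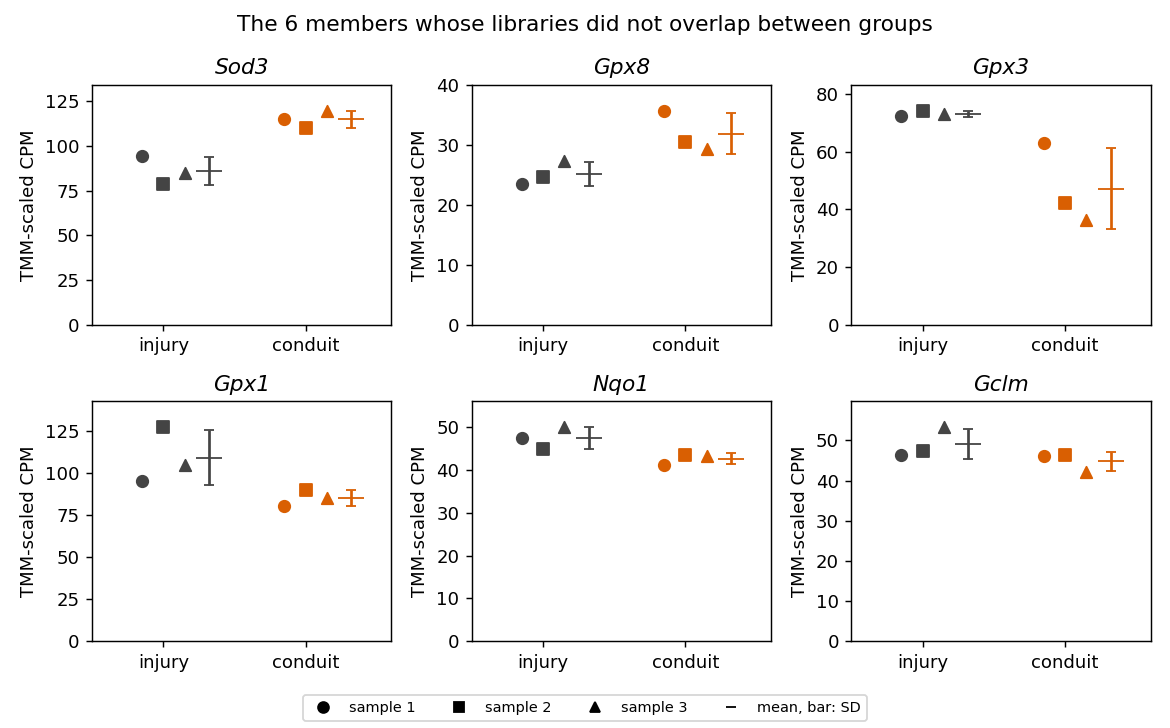
TMM-scaled CPM of the 6 members whose libraries did not overlap between groups, 1 symbol per sample, with the mean and SD (n = 3) beside them. Sod3 and Gpx8 are higher in conduit, Gpx3, Gpx1, Nqo1 and Gclm are lower, and conduit sample 1 lies close to the injury libraries for Gpx3.

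All 6 peroxiredoxins, the thiol enzymes that carry much of the peroxide load, had fold changes near zero, between -0.097 (Prdx2) and 0.030 (Prdx6) on the log2 scale. Prdx2, one of the most abundant proteins of red cells, was 436, 341 and 370 CPM in injury and 314, 367 and 392 CPM in conduit. Its groups overlapped, and its log2 fold change of -0.097 (95% interval -0.40 to 0.21) stood beside a median of -3.09 for the 14 erythroid markers, whose part in the Prdx2 level was not tested. Prdx3, the mitochondrial peroxiredoxin, was 98.7 ± 8.55 CPM in injury against 98.3 ± 10.8 CPM in conduit. Prdx1 was 124 ± 15.5 and 119 ± 13.4 CPM, Prdx5 was 146 ± 16.3 and 144 ± 20.4 CPM, and Prdx6, which also acts on phospholipids, was 66.6 ± 5.6 and 67.99 ± 4.46 CPM.

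The glutathione enzymes had a median log2 fold change of -0.065, with a range from -0.13 to 0.077, and none passed the test. Gclc and Gclm form the ligase that makes the rate-limiting step of glutathione synthesis. Gclc, the catalytic subunit, was 36.4, 38.2 and 34.1 CPM in injury and 33.2, 30.8 and 35.1 CPM in conduit, a log2 fold change of -0.13 (95% interval -0.35 to 0.085). Gclm, the modifier subunit, was 46.5, 47.3 and 53.3 CPM in injury and 46.1, 46.3 and 42 CPM in conduit, a log2 fold change of -0.13 (95% interval -0.34 to 0.085) and -0.21 within batch 2. The libraries of Gclm did not overlap between groups, but conduit samples 1 and 2 were less than 1 CPM below injury sample 1. The 95% intervals allow a fall of at most 21.7% for Gclc and 21.3% for Gclm, and a rise of at most 6.07% and 6.06%.

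Gstp1, a transferase that joins glutathione to reactive compounds and the most abundant member of this group per length, was 103, 72.8 and 92.8 CPM in injury and 78.2, 77.6 and 97.1 CPM in conduit. Gsr, which restores glutathione from its oxidised form, was 61.5 ± 7.65 CPM in injury against 62.3 ± 12.1 CPM in conduit, and Gss, which completes the synthesis, was 31.1 ± 6.18 and 30.2 ± 3.54 CPM. Gsta4, a transferase for the lipid aldehyde hydroxynonenal, was 29.9 ± 3.998 CPM in injury against 31.6 ± 0.296 CPM in conduit. For all 4 the libraries of the groups overlapped. Transferases belong to families of similar genes, so that reads can be shared between copies and their levels are less certain.

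For 26 of the 31 members (83.9%) the difference between group means on the log2 scale was smaller than the range among the 3 injury libraries, as it was for 86.9% of all tested genes. Some of the members shared a shape in their spread within the groups. Injury sample 1 was the highest injury library and conduit sample 3 the highest conduit library for 13 members (41.9%), against 27.3% of all tested genes. These were Keap1, Srxn1, Txn1, Txnrd1, Sod1, Sod3, Gpx4, Gpx7, Prdx2, Prdx5, Gss, Gsr and Gstp1. For 8 of them (25.8% of the members, against 12.6% of all tested genes) injury sample 2 and conduit sample 1 were also the lowest. Among the sensory neuron markers the same shares were 50% and 41.7%. The median deviation of the members from each gene's mean was 0.12 in injury sample 1, -0.11 in injury sample 2 and 0.0066 in injury sample 3, and -0.059, -0.02 and 0.058 in conduit samples 1, 2 and 3. The same median for the 12 sensory neuron markers was 0.13, -0.076 and -0.020 in injury and -0.20, -0.071 and 0.29 in conduit. Within each group the order of the libraries was the same for both lists. This pattern was noticed in these libraries, and whether it is particular to the members or follows the share of neuronal RNA was not tested. Left out in turn, these libraries moved the median of the members to 0.083 (without injury sample 1) and -0.103 (without conduit sample 3).

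**Figure D4:**
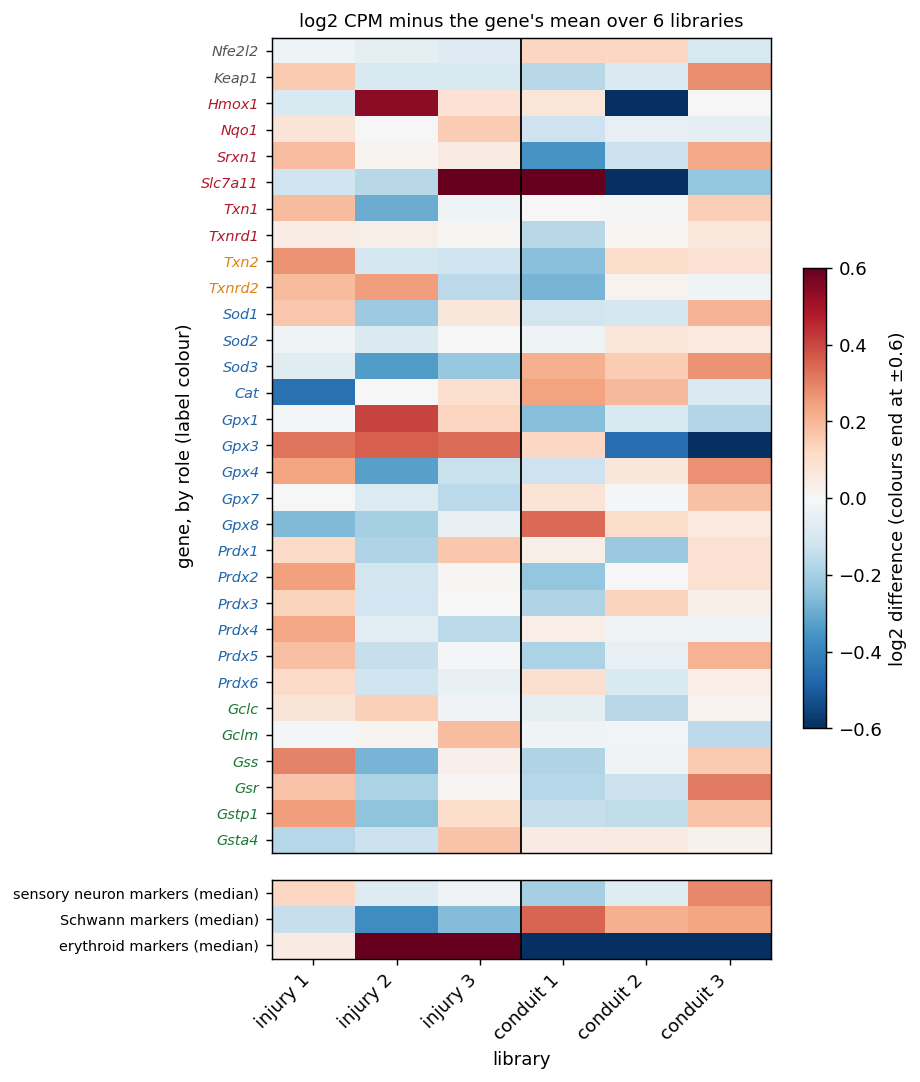
Log2 CPM of each member minus its mean over the 6 libraries (colour, cut at 0.6 in either direction), with the medians of 3 marker lists below. Many members are red in injury sample 1 and conduit sample 3 and blue in injury sample 2 and conduit sample 1, as are the sensory neuron markers, while the erythroid markers are blue in all 3 conduit libraries.

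The wider pathway was described with 140 other genes in 10 lists, of which 132 were tested. edgeR called none of them after adjustment. DESeq2 called 2 (Alox15 and Maob), where it called 1.23% of 17126 genes. At an unadjusted edgeR p under 0.05 there were 8 (6.06%), 4 in each direction, against 5.35% of all tested genes. The median log2 fold change of the 132 genes was 0.016. Among the 10 tested partners and repressors of NRF2, none had an unadjusted p under 0.05. The lowest p belonged to Mafg, a small MAF protein that binds DNA with NRF2, at 103 ± 3.08 CPM in injury against 92.8 ± 6.61 CPM in conduit (log2 fold change -0.15), and to Bach1, which competes with NRF2 at its elements, at 30.9 ± 5.37 and 26.3 ± 3.41 CPM (-0.23).

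Of the 13 genes of NADPH supply, 9 had higher and 4 lower means, none at an unadjusted p under 0.05. Idh1, which makes NADPH in the cytosol, was 139 ± 14.3 CPM in injury against 124 ± 1.2 CPM in conduit, with no overlap between groups. In heme and iron handling 1 of 9 genes had an unadjusted p under 0.05, against 5.35% of all tested genes. It was Slc40a1, the iron exporter ferroportin, at 13.1 ± 4.87 CPM in injury against 7.91 ± 0.841 CPM in conduit (edgeR adjusted p = 0.894). Its injury libraries were at 8.45, 18.2 and 12.6 CPM. Blvrb, a reductase of biliverdin found in red cells, was 21.9 ± 3.84 and 17.5 ± 0.353 CPM, with injury libraries at 17.5, 24.8 and 23.4 CPM. For both genes the groups overlapped, with injury sample 1 inside the range of the conduit libraries. Erythroid markers, 14 of 14 lower, moved in the same direction as both, and their part was not tested. Among the other glutathione transferases, 2 of 19 had an unadjusted p under 0.05, both higher in conduit, against 2.99% of all tested genes. Gsta1 was 49.6 ± 6.29 CPM in injury against 70.4 ± 8.26 CPM in conduit (log2 fold change 0.50, SE 0.13; edgeR adjusted p = 0.627), and Gstt2 was 9.88 ± 0.853 and 12.2 ± 0.561 CPM.

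In glutathione turnover and transport none of 19 tested genes had an unadjusted p under 0.05. Slc25a40 and Slc25a39, a related pair of mitochondrial carriers of which the latter imports glutathione, were 29.1 ± 2.88 and 104 ± 11.3 CPM in injury and 32.9 ± 1.1 and 89.2 ± 12.6 in conduit. None of the 18 genes of the glutaredoxin and methionine sulfoxide list did so either, while 4 were higher in all conduit libraries than in any injury library, which held for 5.41% of all tested genes. Groups without overlap made up 9.85% of the tested genes in the 10 lists, against 9.63% of all genes. Nxn, the thioredoxin relative nucleoredoxin, was 43 ± 1.82 CPM in injury against 48.8 ± 2.93 CPM in conduit, and Sesn1, a stress-induced sestrin, was 35.1 ± 2.72 and 39.96 ± 1.14 CPM. Of 15 genes of selenoprotein synthesis, which supply the selenium enzymes Gpx1, Gpx3, Gpx4 and the thioredoxin reductases, 1 had an unadjusted p under 0.05. The share of all tested genes was 5.35%. Secisbp2l was 912 ± 119 CPM in injury against 1224 ± 253 CPM in conduit, with overlap (edgeR adjusted p = 0.93), and Selenot was 385 ± 36.8 and 437 ± 15.4 CPM. The metallothioneins Mt1 and Mt2A were 10.2 ± 2.51 and 11.1 ± 1.2 CPM in injury and 9.65 ± 1.08 and 11.2 ± 4.23 in conduit.

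Among 16 tested oxidant-producing enzymes, 3 had an unadjusted p under 0.05, 1 of them higher in conduit and 2 lower. The shares of all tested genes were 2.99% higher and 2.36% lower. Maob, monoamine oxidase B, which releases peroxide as it breaks down amines, was 113 ± 4.34 CPM in injury against 149 ± 14.8 CPM in conduit (log2 fold change 0.40, SE 0.097; edgeR adjusted p = 0.614; DESeq2 adjusted p = 0.0236). Mpo, the peroxidase of neutrophil granules, was 2.39, 55.1 and 12.6 CPM in injury and 0.0241, 1.88 and 0.251 CPM in conduit, and is itself one of the neutrophil markers that summed highest in injury sample 2. In the ferroptosis list, Alox15, a lipoxygenase that peroxidises membrane lipids, was 19.6, 20.4 and 30.1 CPM in injury and 2.1, 0.779 and 1.61 CPM in conduit (edgeR adjusted p = 0.0585), and it was the member of the 10 lists with the smallest p. All 14 erythroid markers and all 9 tested neutrophil markers were also lower in conduit, and their part in the Alox15 level was not tested. Gch1, which makes a radical-trapping cofactor, was 2.77 ± 1.34 and 1.67 ± 0.624 CPM with overlap.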

How the data were processed

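RNA of 6 samples was extracted with TRIzol and mRNA libraries were sequenced in pairs of reads, per the labels' protocols and design text. Tools named in the submitters' processing notes are fastp, HISAT2, HTSeq, SAMtools and DESeq2, with the build mRatBN7.2. Versions, annotation and strand use were not given in the sources used here. Deposited counts are whole reads per gene symbol. The FPKM values deposited by the authors are the same counts divided by gene length and library total: for all 15192 genes checked they imply 1 length in every library, within 0.1%, so they serve for levels only.

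Genes were filtered with filterByExpr (minimum count 10), scaled by TMM and tested with edgeR 4.0.16 (robust quasi-likelihood, R 4.3.3), with Benjamini-Hochberg adjustment over 16478 genes and a threshold of 0.05; intervals use the SE and degrees of freedom of that model. limma 3.58.1 and DESeq2 1.42.0 were alternatives, beside other scalings and filters, the replicate number, the batch and libraries left out. Log2 CPM used a prior count of 2. The tests were tried on simulated data. Values per library are given for the 10 members with the smallest p, for 12 fixed members and for the most abundant of each role; each pathway list is given by its 2 genes with the smallest p. The members and lists were chosen with earlier results of these data known. An exact permutation test of 3 libraries against 3 can give no p under 0.1.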

Additional observations from a re-analysis of the deposited data

How the results depend on the processing

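No edgeR or limma fit called a member, and DESeq2 called 1 (Sod3, log2 fold change 0.42). In all 19 alternatives 13 of the 31 members kept their direction, among them Sod3, Gpx8, Gpx3, Gpx1, Nqo1, Hmox1, Srxn1, Gclc and Gclm. The groups did not overlap for Sod3, Gpx8, Gpx3, Gpx1, Nqo1 and Gclm, so fits on fewer of the same libraries could hardly reverse them. Their kept direction in those fits is therefore no added support. The batch term and batch 2 alone are counted apart among the 19 but rest on the same libraries. The count over all genes, 1 in the reported fit, was 6 with no filter, 210 with DESeq2, 7 and 3 with limma on log2 FPKM with pseudocounts of 1 and 0.1, 0 with the replicate block or the batch term, 0 to 38 with each library left out, and 23 without injury samples 2 and 3 (an alternative chosen after seeing the data). Members at an unadjusted p under 0.05, 4 as reported (5.35% of all genes), numbered 3 with the replicate block (3.36%), 0 with the batch term (1.56%), 2 to 6 with each library left out (3.48 to 7.17%) and 1 without injury samples 2 and 3 (4.54%). With each group's mean taken from log2 CPM, the deviations of same-numbered samples correlated at -0.42, 0.057 and -0.071. Such deviations also carry differences in tissue content among 3 libraries a group, so they cannot decide whether the numbers pair the samples.

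The median of the members was -0.12 with the batch term or in batch 2 alone, which rest on the same libraries. It was -0.14 without injury samples 2 and 3, and -0.10 to 0.083 with each library left out. The median of the NRF2 targets was -0.16 with limma-voom or the replicate block. It was -0.20 with log2 FPKM and a pseudocount of 0.1, where the median of all tested genes was -0.053. The superoxide and peroxide enzymes had -0.15 without injury samples 2 and 3 and -0.052 to 0.085 with each library left out, and the glutathione enzymes -0.20 with the batch term and -0.19 in batch 2 alone. The causes were not tested.

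Members with small fold changes changed sign. With log2 FPKM and pseudocounts of 1 and 0.1, Keap1 was at -0.034 and -0.035 and Prdx6 at -0.024 in both. Gsr was at -0.045 and -0.047, and Slc7a11 was at -0.18 with 0.1. The median of all tested genes itself was -0.038 and -0.053 with these pseudocounts, against 0.0017 in the reported fit. Only batch 2 holds both groups, so the fold change with the batch term rests on the same libraries as batch 2 alone. Both gave Keap1 -0.072, Sod2 -0.027, Prdx4 0.20, Gsr -0.18 and Gsta4 -0.12, which counts as 1 comparison. Without injury samples 2 and 3, Keap1 was -0.13, Txn1 -0.14, Gpx4 -0.16, Prdx6 -0.0997 and Gsr -0.15. Slc7a11 was -0.25 with limma-voom and -0.30 with the replicate block. Gsr was -0.0089 with upper quartile scaling, where the median of all tested genes was -0.025. With each library left out the ranges were -0.12 to 0.13 for Keap1, -0.95 to 0.66 for Slc7a11, -0.039 to 0.21 for Txn1, -0.10 to 0.010 for Txnrd1, -0.10 to 0.12 for Txn2, -0.12 to 0.083 for Sod1, -0.17 to 0.027 for Prdx1, -0.17 to 0.019 for Prdx2, -0.070 to 0.080 for Prdx3, -0.091 to 0.12 for Prdx4, -0.13 to 0.084 for Prdx5, -0.022 to 0.11 for Prdx6, -0.18 to 0.12 for Gss, -0.15 to 0.12 for Gsr and -0.21 to 0.036 for Gstp1. Among the members the lowest count in a library was 69, for Slc7a11, where depth limits the precision most.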
